A study of Mus musculus with 8 samples.

Results

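The MYC, MAX and MXD network was followed through 10 genes, Myc, Mycn, Max, Mxd1, Mxd3, Mxd4, Mxi1, Mnt, Mga and Mlx, taken by gene symbol from the 23389 symbols listed for each library. They were chosen by name as the transcription factors of this network, and all 10 were present. The 8 mouse RNA-seq libraries form 4 groups of 2. The 3F+IL6 group holds independently derived induced pluripotent stem (iPS) clones made from embryonic fibroblasts with Oct4, Klf4 and Sox2, on a BALB/c background and treated with 10 ng/mL IL6. The 4F group holds BALB/c iPS clones, also derived independently, made with 4 factors that the labels do not list (in the field, 4F usually adds c-Myc to those 3) and with no IL6 treatment in their labels. The ES group holds biological replicates of D3-GFP embryonic stem cells on a 129S2/SvPas background, and the MEF group holds biological replicates of BALB/c mouse embryonic fibroblasts. Each clone stands for itself, the ES cells are a single line, and strain changes with cell type in every comparison with ES cells. The factors delivered and IL6 change together between the kinds of clone, so their effects cannot be told apart. Reads from a delivered Myc gene and from the cell's own Myc are not separated in these values.

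MYC proteins are transcription factors that bind DNA only as partners of MAX, at the E-box sequence CACGTG, and drive genes of growth, ribosome production and metabolism. MXD proteins, MXI1, MNT and MGA compete for MAX and mostly repress the same genes, while MLX is a MAX-like protein that pairs with glucose-sensing factors of the Mondo family and with some MXD proteins. In mouse ES cells Myc and Mycn are both active and support self-renewal, and MGA with MAX holds germline genes silent.

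Values are RPKM, reads scaled to the length of the gene model and to the reads of the library, so levels of different genes can be set side by side. Depth, estimated from the low values, ran from 11800000 to 18200000 reads. Differences are of log2(RPKM + 1), with standard errors (SE) and Benjamini-Hochberg adjusted p from a limma fit of 13200 genes over all 8 libraries. A gene is called, and said to rise or fall, when its adjusted p was under 0.05. The ES and iPS markers were present in the pluripotent groups, and the sum of the fibroblast markers was low there. The 10 ES and iPS markers summed to 5181 to 6295 RPKM in the clones, 5100 to 5224 in ES cells and 7.02 to 8.82 in MEF. The 12 fibroblast markers summed to 224 and 324 RPKM in 3F+IL6 clones, 211 and 181 in 4F clones, 10.7 and 11.0 in ES, and 3372 and 3362 in MEF. Of these 12, 10 were called lower and 2 higher in 3F+IL6 against MEF, where 32.6% and 49.4% of all genes were. In 4F against MEF 10 were lower and 2 not called, and in ES 12 were lower, where 34.4% and 32% of all genes were lower. All 12 were above 0 in every clone, but so they were in ES 1, and only 1 was at 0 in ES 2. Against ES, 11 were called higher and 1 lower in each kind of clone. Of all genes, 33.1% were higher in 3F+IL6 and 33.7% in 4F. The summed RPKM of Rn45s, Rpph1 and Rmrp, RNAs without a poly-A tail, also differed between libraries, at 64.9 and 60.8 in 3F+IL6, 610.4 and 596.1 in 4F, 89.8 and 704.1 in ES, and 46.5 and 267.5 in MEF. The part of these 2 differences in the results below was not tested. The 3F+IL6 clones lay further apart than other pairs: of 8691 genes with a mean of at least 5 RPKM, 1.21% differed by more than 1 log2 unit within 3F+IL6, against 0.196% within 4F, 0.253% within ES and 0.230% within MEF. In bulk RNA, fewer cells of a type and less RNA per cell cannot be told apart.

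Between the kinds of clone the network differed most at its MYC genes. Myc (chromosome 15, 61985391 to 61990374) was at 5.09 and 16.8 RPKM in 3F+IL6 clones, 53.0 and 54.6 in 4F clones, 20.9 and 20.4 in ES and 62.4 and 62.4 in MEF. Both 3F+IL6 clones were below every other library, and no groups overlapped. Mycn (chromosome 12, 12936093 to 12941914), which encodes N-Myc, was at 43.1 and 76.9 RPKM in 3F+IL6, 27.2 and 28.1 in 4F, 29.7 and 29.6 in ES and 0.922 and 1.20 in MEF. Both 3F+IL6 clones were above every other library, and the 2 MEF libraries were near 1 RPKM. The genes therefore ran in opposite orders across the kinds of clone, with Myc low and Mycn high in 3F+IL6.

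Of the 10 members, limma called 0 between 3F+IL6 and 4F clones, where it called 1.34% of all genes tested, 0.773% higher and 0.568% lower. At an unadjusted p under 0.05 there were 4 members, Myc, Mycn, Mnt and Mga, out of 3198 such genes among all 13200. The difference of Myc was −2.39 (SE 0.42; limma adjusted p = 0.0512; 95% interval −3.39 to −1.40), and that of Mycn was 1.03 (SE 0.23; limma adjusted p = 0.0754; interval 0.48 to 1.59). Across 17 alternative settings the limma adjusted p of Myc ran from 4.97e-06 to 0.402 and its difference from −3.17 to −1.62. Myc passed the threshold with median centring, quantile normalization or a filter at a mean of 5 RPKM, and when 3F+IL6 clone 1 (−1.62) or 2 (−3.17) was left out. It did not pass in any other alternative. Mycn passed only without clone 1 (1.44) or clone 2 (0.62), and in no setting that kept both. Dropping either clone also takes the spread of that pair out of the shared estimate, so these gains are no support.

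**Figure D1:**
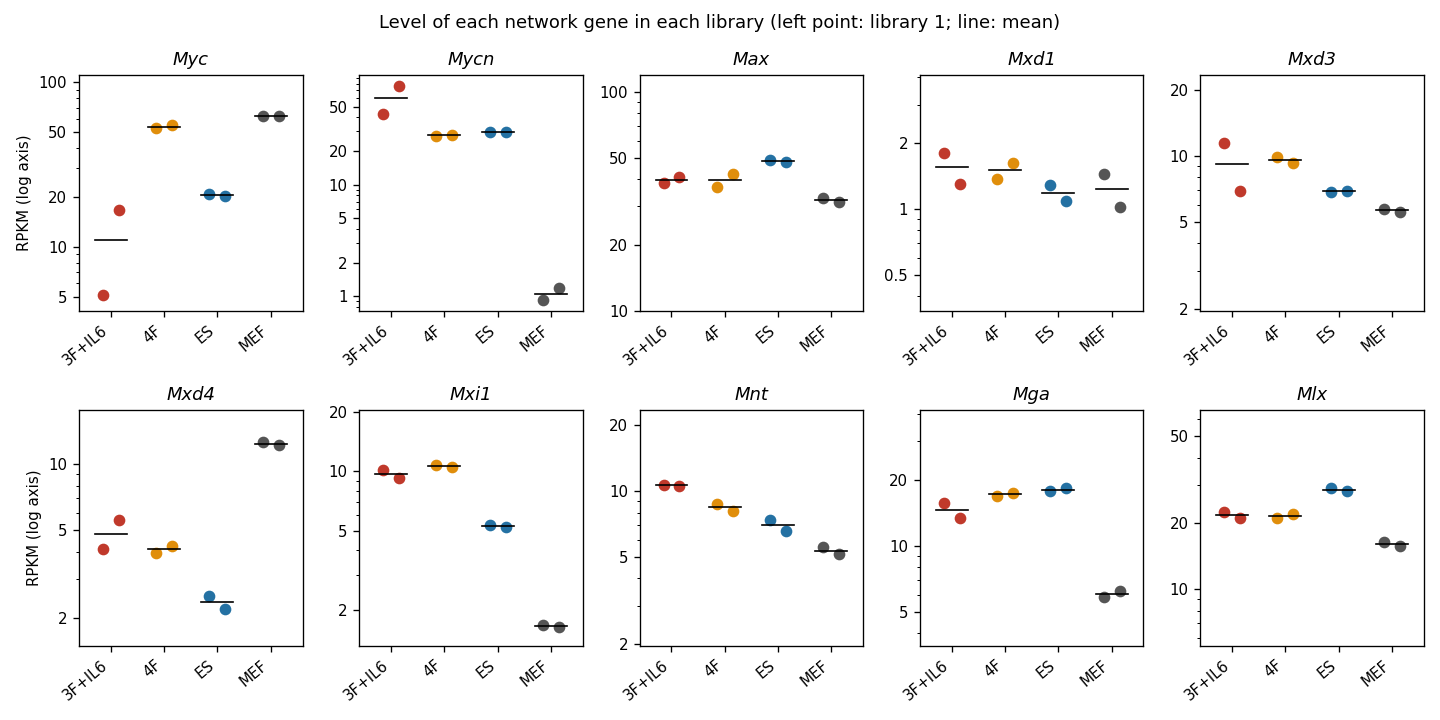
RPKM of each of the 10 genes (vertical log axis, a separate range per panel) in the 4 groups, with a point per library, library 1 on the left, and a line at the mean. The 3F+IL6 clones are below all other libraries for Myc (5.09 and 16.8 RPKM) and above all others for Mycn (43.1 and 76.9).

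Against ES cells the kinds of clone lay on opposite sides for Myc. It rose in 4F clones by 1.34 (SE 0.42; limma adjusted p = 0.0251), a 2.61-fold higher mean. The call was lost without 4F clone 1 (1.36), 4F clone 2 (1.32), ES 1 (1.35) or ES 2 (1.33). The difference itself stayed between 1.32 and 1.38 over the 17 alternatives. The SE of 0.42 is the same in every comparison of Myc. It includes the spread between the 3F+IL6 clones (5.09 and 16.8 RPKM), while Myc was close within 4F (53.0 and 54.6) and within ES (20.9 and 20.4). The shared estimate also draws on these tighter pairs. The 3F+IL6 clones were 1.55 log2 units apart in Myc and 0.82 in Mycn. In comparisons of 3F+IL6 the SE and interval of both genes may therefore be too narrow. In 3F+IL6 clones the difference from ES was −1.05 (limma adjusted p = 0.0617) and was not called. It rested on clone 1: without that clone it was −0.28 and without clone 2 −1.83, and both passed the threshold, as it did with median centring (−1.08) and array weights (−1.05). Mycn rose in 3F+IL6 relative to ES by 0.94 (SE 0.23; limma adjusted p = 0.0108), a 2.02-fold higher mean. That value was 1.35 without clone 1 and 0.52 without clone 2, and the call was lost in a 4-sample fit, of the compared groups alone (limma adjusted p = 0.0538). Mycn in 4F clones differed from ES by −0.10 (limma adjusted p = 0.728; interval −0.65 to 0.46), or by 0.0014 with quantile normalization.

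Against MEF, the cell type from which the 3F+IL6 clones were derived, Mycn rose in all 3 pluripotent groups, by 4.83 in 3F+IL6, 3.80 in 4F and 3.90 in ES (limma adjusted p = 1.37e-06, 4.09e-06 and 3.62e-06). The means were 56.7-fold, 26.1-fold and 28.0-fold those of MEF. Myc fell by 2.60 in 3F+IL6 (limma adjusted p = 0.000774) and by 1.55 in ES (adjusted p = 0.0106) relative to MEF. In 4F clones its difference from MEF was −0.21 (limma adjusted p = 0.654; interval −1.20 to 0.78), which passed the threshold in a 4-sample fit and when 3F+IL6 clone 1 or 2 was left out. In descending order the mean level of Myc ran MEF, 4F, ES and 3F+IL6, and the neighbours not called different were MEF and 4F, and ES and 3F+IL6. That of Mycn ran 3F+IL6, ES, 4F and MEF, and only ES and 4F were neighbours not called different.

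The sum of Myc and Mycn was less different between groups than either gene. It was 48.2 and 93.7 RPKM in 3F+IL6 clones, 80.2 and 82.7 in 4F, 50.6 and 50.0 in ES and 63.3 and 63.6 in MEF. The 3F+IL6 clones bracketed every other library, so the sum of that group did not stand apart from any other. Mycn made up 89.4% and 82.0% of the sum in 3F+IL6, 33.9% and 33.9% in 4F, 58.7% and 59.1% in ES and 1.46% and 1.88% in MEF. The share of this RNA held by Mycn therefore separated all 4 groups with no overlap, as the level of each gene did alone. How often other genes or shares separate the groups was not counted. The 3F+IL6 clones lay closer in the share than in the sum.

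**Figure D2:**
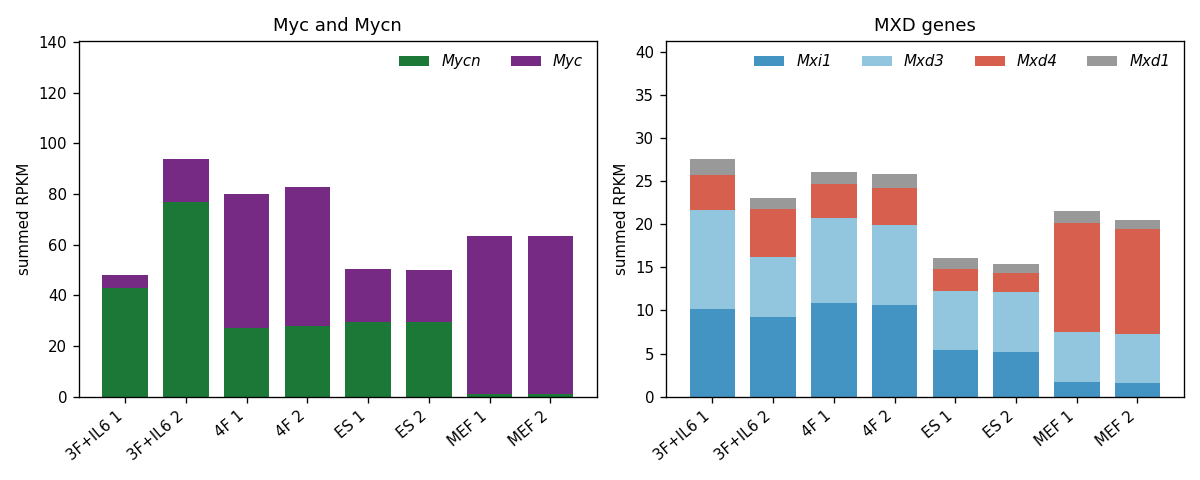
Stacked bars of RPKM by library (horizontal axis, group and library number), with Myc and Mycn at left and the 4 MXD genes at right. Mycn holds most of the bar in 3F+IL6 (89.4% and 82.0%) and little in MEF (1.46% and 1.88%), and Mxd4 holds most of the MXD bar in MEF (58.8% and 59.8%).

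The promoter of Mycn is shown because this gene set the pluripotent groups furthest from MEF. The sequences are from RefSeq on GRCm38.p6 (mm10) and run from 250 bases before to 50 after the gene start. Capitals mark the E2F motifs TTTCGCGC and TTTGGCGC, searched on both strands. E2F factors drive genes of the cell cycle.
Mycn, chr12:12941787-12942086, minus strand: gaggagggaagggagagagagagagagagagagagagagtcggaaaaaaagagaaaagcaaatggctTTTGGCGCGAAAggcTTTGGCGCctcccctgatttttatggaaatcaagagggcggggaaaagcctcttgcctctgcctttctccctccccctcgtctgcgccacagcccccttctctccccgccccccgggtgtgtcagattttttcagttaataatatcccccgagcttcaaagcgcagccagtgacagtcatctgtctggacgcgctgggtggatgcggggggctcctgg
TTTGGCGC began 183 and 168 bases before the start on the gene's strand, and TTTCGCGC lay on the other strand from 179 bases before it, overlapping the first copy. Among 32851 promoter windows of this length, 0.514% held TTTGGCGC and 0.323% held TTTCGCGC. No promoter of the other 8 members matched held either.

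Max, the shared partner of the network, varied little. Max (chromosome 12, 76937269 to 76962201) was at 38.5 and 40.8 RPKM in 3F+IL6, 36.7 and 42.3 in 4F, 48.7 and 47.8 in ES and 33.0 and 31.5 in MEF. The kinds of clone overlapped, ES was above them and MEF below them. The difference between 3F+IL6 and 4F was 0.01 (95% interval −0.17 to 0.19), and its sign turned with either rescaling. Max fell relative to ES by 0.28 in 3F+IL6 and by 0.29 in 4F (adjusted p by limma = 0.0169 and 0.0138). The call in 3F+IL6 was lost without ES 1 (−0.26) or ES 2 (−0.29) and with array weights, and that in 4F without 4F clone 1 (−0.18), ES 1 (−0.27) or ES 2 (−0.30). Relative to MEF, Max rose by 0.29 in 3F+IL6, 0.28 in 4F and 0.57 in ES (limma adjusted p = 0.00938, 0.0106 and 3e-04). The median of all genes tested was itself 0.26, 0.25 and 0.27 above MEF in the same order, and median centring took off 0.11, 0.07 and 0.09. With quantile normalization the Max difference from MEF was 0.13 in 3F+IL6 and 0.14 in 4F and not called in either. Without MEF 2 it was 0.26 in 3F+IL6 and 0.25 in 4F, and without 4F clone 2 it was 0.18 in 4F, none of them called.

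Mlx, which encodes the MAX-like partner, had the same order of levels as Max. Mlx (chromosome 11, 101087277 to 101092207) was at 22.6 and 21.1 RPKM in 3F+IL6, 21.3 and 22.1 in 4F, 29.1 and 28.0 in ES and 16.5 and 15.8 in MEF. The clones of both kinds lay together between ES and MEF. Mlx fell relative to ES by 0.37 in 3F+IL6 and by 0.38 in 4F (adjusted p by limma = 0.00222 and 0.00176). Relative to MEF it rose by 0.41 in 3F+IL6, 0.41 in 4F and 0.79 in ES (limma adjusted p = 0.000657, 0.000726 and 1.93e-05). Between the kinds of clone the difference was 0.01 (interval −0.14 to 0.16). Of the 50-base windows of the longest Mlx transcript, 17.5% also lie in transcripts of the antisense neighbour Psmc3ip, so reads there cannot be given to a strand. Psmc3ip had a difference from ES of 0.27 in 3F+IL6 and 0.19 in 4F, of the opposite sign to Mlx, and rose by 1.54 in ES relative to MEF (limma adjusted p = 4.06e-06), the same sign as Mlx.

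The MXD genes encode repressors that take MAX from MYC. Mxi1 lies on chromosome 19, 53310518 to 53375810. It was at 10.1 and 9.28 RPKM in 3F+IL6, 10.8 and 10.6 in 4F, 5.39 and 5.21 in ES and 1.68 and 1.64 in MEF. The groups did not overlap, with clones of both kinds above ES and ES above MEF. Mxi1 rose relative to ES by 0.76 in 3F+IL6 and 0.89 in 4F (adjusted p by limma = 0.000222 and 0.000106). It rose relative to MEF by 2.01 in 3F+IL6, 2.14 in 4F and 1.24 in ES (limma adjusted p = 5.83e-07, 4.08e-07 and 5.36e-06). Between the kinds of clone its difference was −0.13 (limma adjusted p = 0.353; interval −0.32 to 0.06).

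Mxd4 ran the other way. Mxd4 (chromosome 5, 34173883 to 34187720) was at 4.11 and 5.56 RPKM in 3F+IL6, 3.94 and 4.25 in 4F, 2.52 and 2.18 in ES and 12.7 and 12.2 in MEF. MEF was above every pluripotent library and ES below every clone. Relative to MEF it fell by 1.22 in 3F+IL6, 1.40 in 4F and 2.01 in ES (limma adjusted p = 8.32e-05, 3.61e-05 and 5.46e-06). Relative to ES it rose by 0.79 in 3F+IL6 and 0.60 in 4F (adjusted p by limma = 0.00171 and 0.00517). The fibroblast marker sum stood in the same order for these groups. It was 224 and 324 RPKM in 3F+IL6, 211 and 181 in 4F, 10.7 and 11.0 in ES and 3372 and 3362 in MEF. The part of these markers in the level of Mxd4 in the clones was not tested.

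Mxd3 and Mxd1 moved less. Mxd3 (chromosome 13, 55325168 to 55329823), whose product is known from cells in S phase, was at 11.4 and 6.94 RPKM in 3F+IL6, 9.91 and 9.32 in 4F, 6.89 and 6.95 in ES and 5.77 and 5.57 in MEF. The 3F+IL6 clones spanned the range of 4F and reached that of ES. It rose relative to MEF by 0.58 in 3F+IL6 and 0.67 in 4F (adjusted p by limma = 0.0239 and 0.0124). The 3F+IL6 value was 0.25 without clone 1 and 0.90 without clone 2. That call was lost with median centring (0.46), quantile normalization (0.47), a 4-sample fit, and without MEF 1 (0.60) or MEF 2 (0.56), and the 4F call without 4F clone 1 (0.63) or MEF 2 (0.65). Relative to ES, the Mxd3 difference in 3F+IL6 was 0.33 (limma adjusted p = 0.167), 0.0035 without clone 1 and 0.65, past the threshold, without clone 2. In 4F it was 0.42 (limma adjusted p = 0.085) and passed the threshold in 4 alternatives, a 4-sample fit, array weights and without either 3F+IL6 clone. Mxd1 (chromosome 6, 86647042 to 86669161), known from differentiating cells, was at 1.81 and 1.30 RPKM in 3F+IL6, 1.37 and 1.63 in 4F, 1.29 and 1.08 in ES and 1.44 and 1.02 in MEF. It was the lowest member in every library except MEF 1, where Mycn was lower, and was called in 0 of 6 comparisons by limma, with 0 at an unadjusted p under 0.05.

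The 4 MXD genes together summed to 27.5 and 23.1 RPKM in 3F+IL6, 26.1 and 25.8 in 4F, 16.1 and 15.4 in ES and 21.6 and 20.5 in MEF. All 4 clones were above every ES and MEF library. Mxi1 made up 36.9% and 40.2% of that sum in 3F+IL6, 41.6% and 41.1% in 4F, 33.5% and 33.8% in ES and 7.79% and 8.02% in MEF. Mxd4 made up 14.9% and 24.1%, 15.1% and 16.5%, and 15.6% and 14.2% in the same order of pluripotent groups, and 58.8% and 59.8% in MEF. Myc and Mycn together stood to the MXD sum at ratios of 1.75 and 4.06 in 3F+IL6, 3.08 and 3.21 in 4F, 3.14 and 3.24 in ES and 2.94 and 3.11 in MEF. The ratio was near 3 in all 6 libraries outside 3F+IL6, while its clones lay on either side. It depends on the genes summed, and leaves out Mycl1, the third MYC gene, and the MAX partners Mnt and Mga. With quantile normalization its mean in ES was 2.90.

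Mnt and Mga encode large MAX partners. Mnt (chromosome 11, 74830920 to 74845725), a repressor present in most cell types, was at 10.7 and 10.5 RPKM in 3F+IL6, 8.80 and 8.15 in 4F, 7.42 and 6.60 in ES and 5.55 and 5.19 in MEF. The groups did not overlap and stepped down in that order. Mnt rose relative to ES by 0.54 in 3F+IL6 (limma adjusted p = 0.0015) and by 0.24 in 4F (adjusted p = 0.0405). The 4F call was lost with no filter, with quantile normalization (0.23), in a 4-sample fit, and without 4F clone 1 (0.19), 4F clone 2 (0.29), ES 1 (0.32), ES 2 (0.17), MEF 1 or MEF 2 (0.24 each). Relative to MEF it rose by 0.87 in 3F+IL6, 0.57 in 4F and 0.33 in ES (limma adjusted p = 5.55e-05, 0.000538 and 0.00941), and the ES call was lost without ES 1 (0.25) or MEF 2 (0.29). Between the kinds of clone its difference of 0.30 was not called (limma adjusted p = 0.115).

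Mga (chromosome 2, 119897228 to 119969581), the scaffold of a repressive Polycomb complex, was at 15.7 and 13.4 RPKM in 3F+IL6, 16.9 and 17.5 in 4F, 17.8 and 18.4 in ES and 5.84 and 6.23 in MEF. All pluripotent libraries were above 13 RPKM and both MEF libraries under 7. Relative to MEF it rose by 1.14 in 3F+IL6, 1.37 in 4F and 1.44 in ES (limma adjusted p = 1.38e-05, 5.01e-06 and 3.97e-06). Relative to ES it fell by 0.30 in 3F+IL6 (limma adjusted p = 0.0219), but by 0.19 without clone 2, and the call was lost in a 4-sample fit, with array weights, and without ES 1 (−0.32) or ES 2 (−0.27). In 4F clones its difference from ES was −0.07 (adjusted p = 0.528), and between the kinds of clone it was −0.23 (adjusted p = 0.177).

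As a set, 7 of the 10 members were called in 3F+IL6 against ES, 4 higher and 3 lower, where 63.4% of all genes tested were called, 33.1% higher and 30.3% lower. In 4F against ES it was 6, with 4 higher and 2 lower, against 67.2% of all genes, 33.7% higher and 33.5% lower. Relative to MEF, 7 members rose and 2 fell in 3F+IL6, where 82.1% of all genes were called, 49.4% higher and 32.6% lower. In 4F 7 rose and 1 fell, beside 83.6% of all genes, 49.2% higher and 34.4% lower. In ES 6 rose and 2 fell, beside 81.7% of all genes, 49.7% higher and 32% lower. Each share of members was near that of all genes, so the counts say nothing particular about the network. The median differences of the 10 were 0.27, 0.22, 0.50, 0.49 and 0.45 in those 5 comparisons, against 0.01, 0.0041, 0.26, 0.25 and 0.27 over all genes. The comparisons share libraries and are not independent of each other. Without 4F clone 1, ES 1 or ES 2, limma called 3 members in 4F against ES.

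**Figure D3:**
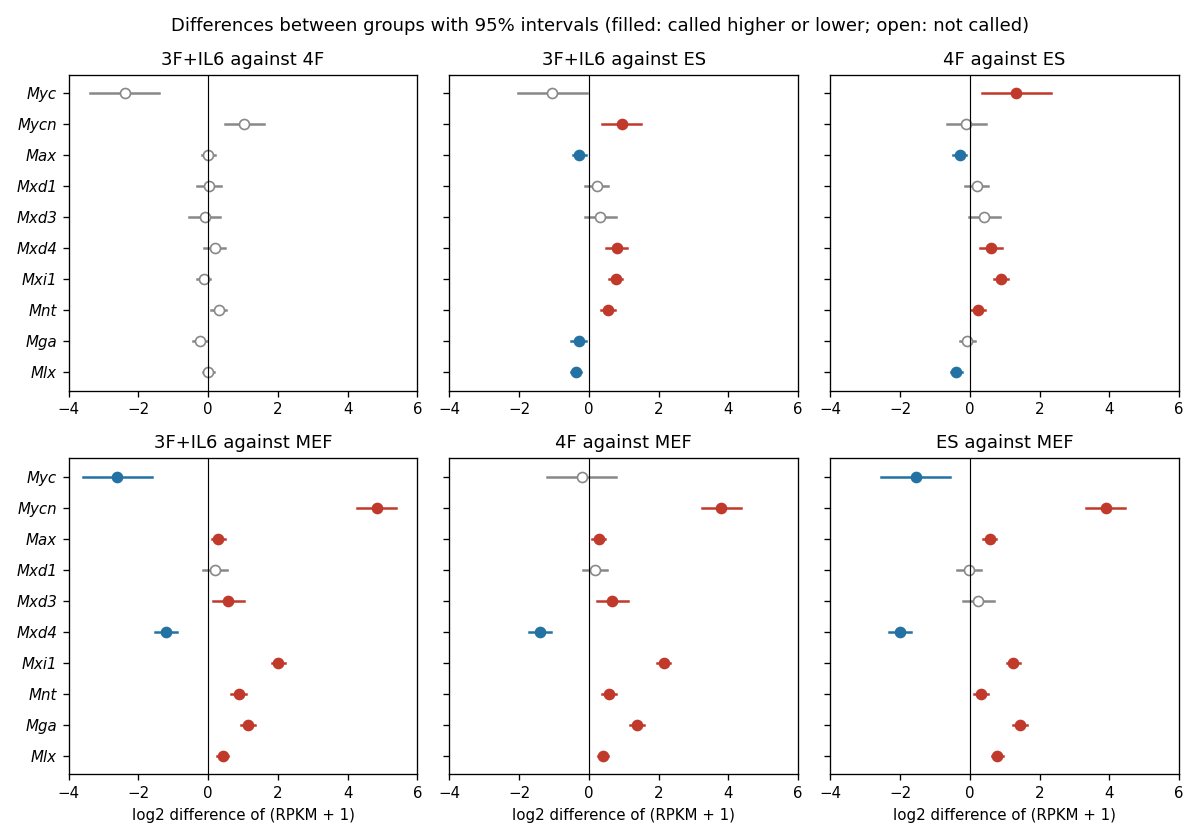
Differences of log2(RPKM + 1) (horizontal axis) of the 10 genes in 6 comparisons, first group minus second, with 95% intervals from limma. Filled points passed an adjusted p of 0.05, red for higher and blue for lower, and open points did not. No point is filled in 3F+IL6 against 4F, where Myc (−2.39) and Mycn (1.03) lie furthest from 0.

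The 3F+IL6 clones differed from each other most in the MYC genes. Clone 2 had 3.31 times the RPKM of clone 1 for Myc and 1.79 times for Mycn, while the Mxd3 level of clone 1 was 1.65 times that of clone 2. Of 8691 genes with a mean of at least 5 RPKM, 0.357% lay at least as far apart as Myc between these clones on the log2 scale, 2.14% as far as Mycn and 4.86% as far as Mxd3. In the 4F clones, Myc and Mycn each differed by 1.03 times, and 75.6% and 73.8% of genes lay at least as far apart. Max, Mxi1, Mnt and Mlx differed by 1.02 to 1.09 times between the 3F+IL6 clones, so the spread of that group did not extend to every member. The fibroblast marker sum moved with this difference, at 324 RPKM in clone 2 and 224 in clone 1. The part of these markers in the difference was not tested.

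**Figure D4:**
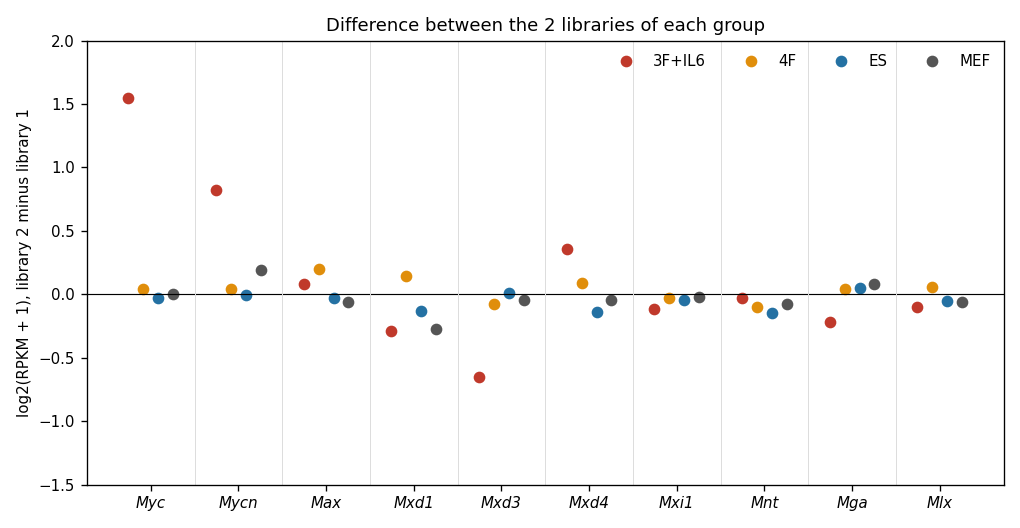
Difference of log2(RPKM + 1) between the 2 libraries of each group (vertical axis, library 2 minus library 1) for the 10 genes, coloured by group. The 3F+IL6 points for Myc (1.55), Mycn (0.82) and Mxd3 (−0.65) lie far from 0, and those of 4F, ES and MEF lie between −0.28 and 0.20.

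E-boxes are shown next because MYC and MAX bind CACGTG and 4 of the 9 members with a RefSeq promoter carry it. Promoters were matched by symbol for all members except Myc. The motif reads the same on both strands, is marked in capitals and overlaps no other motif searched.
Max, chr12:76962199-76962498, minus strand: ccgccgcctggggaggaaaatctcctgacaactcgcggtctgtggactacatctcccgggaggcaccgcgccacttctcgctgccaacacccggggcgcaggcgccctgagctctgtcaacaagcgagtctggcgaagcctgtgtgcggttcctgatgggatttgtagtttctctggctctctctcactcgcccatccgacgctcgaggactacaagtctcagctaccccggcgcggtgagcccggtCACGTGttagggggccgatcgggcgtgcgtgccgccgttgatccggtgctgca
Mlx, chr11:101087040-101087339, plus strand: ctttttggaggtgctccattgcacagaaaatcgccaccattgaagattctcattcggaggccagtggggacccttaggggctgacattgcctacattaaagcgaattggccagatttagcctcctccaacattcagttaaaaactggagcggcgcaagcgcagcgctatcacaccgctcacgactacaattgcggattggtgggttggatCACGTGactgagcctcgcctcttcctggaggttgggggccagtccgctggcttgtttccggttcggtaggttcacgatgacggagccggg
Mnt, chr11:74830674-74830973, plus strand: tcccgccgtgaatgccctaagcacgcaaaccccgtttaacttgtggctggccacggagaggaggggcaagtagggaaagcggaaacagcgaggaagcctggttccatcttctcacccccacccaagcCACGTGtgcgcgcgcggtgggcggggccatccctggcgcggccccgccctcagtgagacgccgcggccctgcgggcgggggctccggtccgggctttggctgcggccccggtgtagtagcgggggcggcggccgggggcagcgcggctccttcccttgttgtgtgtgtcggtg
Mxd4, chr5:34187661-34187960, minus strand: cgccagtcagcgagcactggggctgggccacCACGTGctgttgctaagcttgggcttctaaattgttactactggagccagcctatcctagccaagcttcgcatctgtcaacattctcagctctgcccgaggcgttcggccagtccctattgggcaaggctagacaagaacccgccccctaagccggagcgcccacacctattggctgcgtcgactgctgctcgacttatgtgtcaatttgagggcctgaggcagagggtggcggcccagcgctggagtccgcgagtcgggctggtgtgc
The E-box began 3 bases before the start of Max, 40 before Mlx, 123 before Mnt and 219 before Mxd4. Of all 32851 promoter windows, 7.15% held it. These 4 genes did not share a pattern of levels, since Max and Mlx were highest in ES, Mnt in 3F+IL6 and Mxd4 in MEF. The STAT motif TTCNNNGAA, of interest because IL6 acts through STAT3, was in 0 of the 9 members' promoters and in 8.3% of all, and the octamer ATGCAAAT, the site of Oct4, was in 0 and in 1.74% of all. The GC box GGGCGG was in 7 of the 9 and in 35.7% of all. The 9 members had 11 windows, and a member was counted when any of its windows held the motif. The shares of all are per window, so the units differ. Absence of these letters from a window says nothing of the factor.

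Outside the 10, the third MYC gene and the Mondo factors were called higher in both kinds of iPS clone than in ES cells. Such calls were common: 63.4% of all genes tested were called in 3F+IL6 against ES and 67.2% in 4F, with 33.1% and 33.7% higher. Mycl1, which encodes L-Myc, was at 7.70 and 15.8 RPKM in 3F+IL6, 8.83 and 10.1 in 4F, 1.36 and 1.34 in ES and 2.09 and 2.03 in MEF. Clones of both kinds were above every ES and MEF library, and rose by 2.36 and 2.15 relative to ES (limma adjusted p = 0.000319 and 0.000441 for 3F+IL6 and 4F). Mlxipl, which encodes the glucose-responsive factor ChREBP, was at 1.81 and 1.55 RPKM in 3F+IL6, 1.99 and 2.13 in 4F, 0.326 and 0.216 in ES, and 0.0152 and 0 in MEF. Mlxip, the gene of MondoA, was at 7.41 and 6.89 RPKM in 3F+IL6, 6.97 and 7.32 in 4F, 5.27 and 5.94 in ES and 7.33 and 6.66 in MEF, and rose by 0.30 in either kind of clone relative to ES (limma adjusted p = 0.0237 and 0.0225). In Mlxip both kinds of clone overlapped MEF, so its level was not particular to the clones. Of these 3 genes limma called 0 between the kinds of clone, where it called 1.34% of all genes, with 0 at an unadjusted p under 0.05. Txnip and Arrdc4, glucose-induced targets of MondoA and MLX, were not called in 3F+IL6 against ES and rose in 4F against ES, by 1.45 (limma adjusted p = 0.0124) and 0.41 (adjusted p = 0.0225). Txnip was at 217.7 ± 139.4 RPKM in 3F+IL6, 369.4 ± 34.3 in 4F and 134.0 ± 2.36 in ES (SD, n = 2 each), and 3F+IL6 against 4F was not called (limma adjusted p = 0.202).

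Between the kinds of clone, where 1.34% of all genes were called and 3198 of 13200 had an unadjusted p under 0.05, lists of this size would hold few calls or none, and counts of 0 say nothing particular about MYC-responsive genes. Of 17 MYC-activated genes of ribosome biogenesis, limma called 0 in 3F+IL6 against 4F, 2 having an unadjusted p under 0.05, with a median difference of −0.0056, against 0.03 over all genes. Those with the smallest p were the nucleolar protein genes Fbl (−0.18), Gnl3 (−0.16) and Nop16 (−0.15). Of 15 MYC-activated genes of metabolism and the cell cycle it called 0. Of these, 6 had an unadjusted p under 0.05, and the median of the 15 was −0.02. Those with the smallest p were the cyclin-dependent kinase gene Cdk4 (0.23, limma adjusted p = 0.0772), the nucleotide synthesis gene Impdh2 (−0.16) and Ccnd2. The cyclin gene Ccnd2 averaged 7.71 ± 3.16 RPKM in 3F+IL6 clones against 3.98 ± 0.14 in 4F clones (SD, n = 2 each; 0.76, limma adjusted p = 0.114). Of 5 MYC-repressed genes it called 0, with 1 at an unadjusted p under 0.05. That gene was Cdkn1a, which encodes the cell cycle inhibitor p21. It averaged 63.0 ± 3.3 RPKM in 3F+IL6 clones against 77.5 ± 7.07 in 4F clones (SD, n = 2 each; −0.29, limma adjusted p = 0.0877). The MYC cofactor Ruvbl2, a helicase gene, had a difference of −0.26 (limma adjusted p = 0.054). Limma called 0 of 10 cofactor genes, 0 of 10 of the MXD corepressor complex, 0 of 9 of the MGA complex and 0 of 7 of MYC protein turnover, with 3, 0, 1 and 0 at an unadjusted p under 0.05.

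The lists are next given against MEF, where 82.1% of all genes were called in 3F+IL6, 83.6% in 4F and 81.7% in ES, with 49.4%, 49.2% and 49.7% higher in the same order. Of the 17 ribosome biogenesis genes, 15 rose in 3F+IL6, 15 in 4F and 17 in ES, and 0 fell in each. The median differences were 0.71, 0.69 and 0.82, against 0.26, 0.25 and 0.27 over all genes. Npm1, which encodes nucleophosmin, was at 2239 ± 37.4 RPKM in 3F+IL6, 2300.2 ± 198.8 in 4F, 2420 ± 1.63 in ES and 986.7 ± 5.22 in MEF (SD, n = 2 each). Of the 15 metabolism and cell cycle genes, 12 rose and 2 fell in 3F+IL6, 11 rose and 2 fell in 4F, and 9 rose and 3 fell in ES. Ccnd2 fell relative to MEF, with differences of −3.62 in 3F+IL6, −4.38 in 4F and −5.32 in ES (limma adjusted p = 3.97e-06, 1.44e-06 and 5.68e-07). Of the 10 cofactor genes, 8, 9 and 9 rose and 0 fell in the same order of groups, and of the 10 corepressor genes 9, 8 and 8 rose and 1 fell in each. With most genes called in these comparisons, nothing particular to the lists is read from their counts.

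Against ES cells, 63.4% of all genes were called in 3F+IL6 and 67.2% in 4F, with 33.1% and 33.7% higher. Of 5 MYC-repressed genes, 4 rose and 0 fell in 3F+IL6 and likewise in 4F, with the stress gene Gadd45a not called. Cdkn1a rose by 2.47 in 3F+IL6 and by 2.76 in 4F (adjusted p by limma = 2.19e-06 and 1.9e-06), and Ndrg1, a stress-responsive gene named for its repression by N-Myc, by 4.87 and 5.13 (adjusted p = 9.33e-05 and 7.3e-05). The cell cycle inhibitor genes Cdkn2b and Cdkn1b rose by 2.77 and 0.67 in 3F+IL6 and by 2.30 and 0.54 in 4F. Of the 17 ribosome biogenesis genes, 2 were higher and 6 lower in 3F+IL6, and the same numbers in 4F, a smaller share called than over all genes. In the MGA complex, 1 rose and 3 fell of 9 in either kind of clone, also a smaller share than over all genes, and the largest fall was of Rnf2, a Polycomb ubiquitin ligase gene, by 1.31 in 3F+IL6 and 1.21 in 4F (adjusted p by limma = 1.55e-05 and 2.15e-05). Its partners in the complex E2f6 and Rybp fell by 0.88 and 0.73 in 3F+IL6. In MYC protein turnover 3 rose and 4 fell of 7 in each, with Usp28, a deubiquitinase gene that stabilises MYC, higher by 1.56 and 1.68 (adjusted p = 3.04e-05 and 2.39e-05).

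By the root mean square difference of centred log2 profiles over the 8 libraries, among 8691 genes with a mean of at least 5 RPKM, those most like Mycn were Enpp3 (0.27), Tuba3b (0.29) and Gpa33 (0.35). Enpp3 was at 29.1 and 28.9 RPKM in 3F+IL6, 16.6 and 16.8 in 4F, 14.5 and 14.6 in ES and 0.296 and 0.405 in MEF. Those nearest to Myc were the small RNA genes Mir1949 (0.57), Snord49a (0.64) and Snord95 (0.69), all further from it than Gpa33 was from Mycn. Mir1949 and Snord49a were listed at 0 in 3F+IL6 clone 1. Genes this short reach a given RPKM on few reads. Mir1949 was at 16.5 and 7.73 RPKM in the 4F clones and 3.09 and 6.49 in ES, pairs in which Myc was nearly equal. No likeness to Myc is therefore read from these 3 genes.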

How the data were processed

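Poly-A RNA of 8 mouse libraries was sequenced as 50-base reads with a TruSeq RNA kit, per the labels' protocols. The submitters' processing notes give mm10 as the build. The aligner, counter, gene models and treatment of multiply mapped reads were not given in the sources used here. The authors deposited 1 value per symbol and library, read here as RPKM because low values times transcript length cluster at multiples of a constant step in each library. That step gave the depths. Only 50.3% to 55.7% of low values were within 0.1 read of a whole number, so read counts could not be restored and no count model was fitted.

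From these, log2(RPKM + 1) was computed for the 13200 genes with at least 1 RPKM in at least 2 libraries, and all 10 members passed. A fold on this scale understates changes of low genes. limma 3.58.1 in R 4.3.3 fitted the 8 libraries with trended empirical Bayes variance and group as the only term. Benjamini-Hochberg adjustment covered all genes tested in each of 6 comparisons, two-sided, at 0.05. The fit was tested on simulated data with the same spread in every group. In these data the 3F+IL6 clones lay further apart than the other pairs, so that test does not cover their unequal spread. Estimated reads behind a value (longest transcript times depth) ran from 44 to 2920 for the MYC genes and from 75 to 3886 for the other members. GENCODE release M21 (mm10) gave the 1-based gene coordinates. Of 50-base windows of the longest transcript, 17.5% for Mlx, 2.95% for Mxi1, 0.634% for Mga, 0.0528% for Max and 0 for the other members occur in another gene.

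The members and lists were chosen with earlier results of these data known. Named genes are the members, all genes of lists of up to 5, up to 3 genes with the smallest p of other lists, and the 3 genes most like Myc and Mycn, predicted genes left out. Psmc3ip, and Ccnd2 in 3F+IL6 against MEF, were named outside that rule after their values were seen. Alternatives were another pseudocount, 2 filters, 2 rescalings, a 4-sample fit, no trend, array weights, a replicate block and leaving out each library. The table held 1 row with no value, which was dropped.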

Additional observations from a re-analysis of the deposited data

Results flagged for a closer look

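Myc was lower than both ES libraries in each 3F+IL6 clone and higher than both in each 4F clone, so the clones lay on opposite sides of ES. The difference itself, 3F+IL6 minus 4F, was −2.39 on the log2 scale with limma adjusted p = 0.0512, just over the threshold.

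Mycn was higher than both ES libraries in each 3F+IL6 clone (43.1 and 76.9 RPKM, against 29.7 and 29.6 in ES) and lower in each 4F clone (27.2 and 28.1 RPKM). The difference between the kinds of clone was 1.03 (limma adjusted p = 0.0754), also short of the threshold. That of 4F from ES was small and not called (−0.10, limma adjusted p = 0.728). With quantile normalization it was 0.0014, so the side of ES on which 4F lay turned.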

How the results depend on the processing

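Across 17 alternatives, 930 of the 1014 member differences kept their direction and their side of the threshold, 38 lost a call, 26 gained one and 20 changed sign. All 20 were of values not called in any setting that turned them. With median centring 3F+IL6 against 4F was −0.030 for Max, −0.013 for Mxd1 and −0.029 for Mlx; with quantile normalization it was −0.0019, −0.039 and −0.010. Quantile normalization also gave Mxd1 −0.095 in 3F+IL6 against ES, −0.056 in 4F against ES, −0.16 in 3F+IL6 against MEF and −0.12 in 4F against MEF, and Mycn 0.0014 in 4F against ES. Leaving out 1 library moved 3F+IL6 against 4F between −0.091 and 0.11 for Max, −0.12 and 0.17 for Mxd1, −0.42 and 0.23 for Mxd3 and −0.038 and 0.058 for Mlx, and Mxd1 in ES against MEF between −0.16 and 0.11. The cause was not tested. Quantile normalization moved sums as well. With it the mean of Myc plus Mycn was 47.4 RPKM in ES and 69.9 in MEF, against 50.3 and 63.5 in the main values.

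Between 3F+IL6 and 4F, 1 member was called with the stricter filter, median centring or quantile normalization, and 0 to 5 without 1 library. The all-gene count there was 177, and 56 with a pseudocount of 0.1, 315 with quantile normalization, 12 in a 4-sample fit, 5 with array weights, 36 with the replicate block and 1 to 4782 without 1 library. In 4F against ES, 3 to 7 members were called without 1 library. The replicate number as a block changed no member call (0, 7, 6, 9, 8 and 8 members in the 6 comparisons). Same-numbered libraries did not deviate together in every pair of groups (correlations of −0.06 to 0.21). The highest correlation was between ES and MEF. The sum of Rn45s, Rpph1 and Rmrp was also higher in library 2 of both, at 704.1 against 89.8 RPKM in ES and 267.5 against 46.5 in MEF. Whether those libraries are paired was not tested. Mxd1 was not tested with the stricter filter. As few as 75 estimated reads lay behind a value of Mxd1, whose differences had an SE of 0.14.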
